A study of Mus musculus with 8 samples.

Results

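The autophagy machinery is the set of genes whose products build the autophagosome, choose its cargo and switch the process on. Genes were taken by name from the table of expression values: the Atg genes, Ulk1 and Ulk2, Wipi1 and Wipi2, the Map1lc3 and Gabarap genes, and 10 further genes (Becn1, Sqstm1, Pik3c3, Pik3r4, Rb1cc1, Ambra1, Uvrag, Optn, Nbr1 and Tfeb), with the pseudogene Atg4a-ps left out. This gave 37 of the 55157 genes in the table. Of these, 36 reached the mean of 1 FPKM (fragments divided by exon length and by the depth of the library) over the 8 libraries that a gene needed to be tested, as did 14738 genes in all. The rule used names alone, and it was set with earlier results of these data known.

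The RNA came from type 7 to 8 follicles, a morphological class of growing follicle, isolated from ovaries of Kunming mice at postnatal day 21. The 4 melatonin libraries came 24 h after an injection of PMSG with melatonin (PMSG is pregnant mare serum gonadotropin, which acts on the FSH receptor). The 4 control libraries came 24 h after PMSG with normal saline, so both groups had received the gonadotropin and a follicle without it was not part of the comparison. Kunming mice are an outbred stock. No dose, and no statement on whether a library was 1 animal or a pool, is given in the labels, so the p-values speak only for the spread among these libraries, part of which may be technical.

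Follicle RNA was checked against cell type markers. All 8 granulosa markers and all 12 oocyte markers reached a mean of 1 FPKM. Summed granulosa markers were at 6180 to 7031 FPKM in melatonin libraries and 7221 to 9475 FPKM in control libraries, without overlap. Most of that sum was Inha, at 4985 to 5646 FPKM and 5883 to 7333 FPKM, the 1 granulosa marker of 8 whose groups did not overlap. Of the 8, 7 had a negative log2 fold change and 1 a positive one. Summed oocyte markers were at 337 to 437 FPKM in melatonin and 350 to 544 FPKM in control libraries, with overlap. Summed theca markers were at 628 to 1195 FPKM in melatonin and 980 to 1320 FPKM in control libraries, with overlap. Most of that sum was Hsd3b1, at 574 to 1138 FPKM in melatonin and 909 to 1264 FPKM in control libraries. The theca marker Cyp17a1 was at 3.26 to 20.4 FPKM and 15.4 to 23.2 FPKM. Leukocyte and erythroid markers were highest in control replicate 3. In bulk RNA, fewer cells of a type and less RNA per cell cannot be told apart. Depth was 18553187 to 23649204 fragments in melatonin and 17451111 to 22034311 fragments in control libraries, and each tested autophagy gene rested on 75 to 7677 fragments per library. The libraries also differed in how a gene's level, relative to its mean, followed GC content. Across genes, which are not independent replicates, Spearman's rho was -0.182 to -0.121 in melatonin and -0.0235 to 0.261 in control libraries. Whether this or the marker levels took part in the differences below was not tested beyond the corrected values given beside them.

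Autophagy encloses part of the cytoplasm in a double membrane and delivers it to the lysosome. A kinase complex around ULK1 starts the process, a lipid kinase complex around VPS34 marks the membrane, and 2 ubiquitin-like conjugation systems attach ATG8 proteins to the membrane, where cargo receptors bind them. In the ovary, autophagy is known for its part in the survival of oocytes and in the loss of granulosa cells during atresia, and melatonin has been studied as a modulator of both. Much of its control acts on proteins, by phosphorylation, lipidation and turnover, which transcript levels do not record.

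No autophagy gene differed between melatonin and control follicles at the threshold. With limma on log2(FPKM + 1) and Benjamini-Hochberg adjustment over all 14738 tested genes, 0 of 36 had an adjusted p under 0.05, as did 0% of all tested genes, and the smallest adjusted p of the 36 was 0.150, for Ulk2. At an unadjusted p under 0.05, 3 genes were higher with melatonin (Ulk1, Ulk2 and Rb1cc1, 8.33% of the 36), where 9.4% of all tested genes were, and 2 were lower (Atg5 and Map1lc3a, 5.56%), where 9.74% of all tested genes were. These shares lie below or near the background. The 4 melatonin values lay wholly above the 4 control values in 1 gene, Atg16l2 (2.78%, against 5.79% of all tested genes), and wholly below them in 0 genes (against 5.94%). limma-voom on fragments recovered from the FPKM values also gave 0 calls, with 5 of the 36 at an unadjusted p under 0.05.

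The differences were small as well as uncalled. The log2 fold changes of the 36 genes ran from -0.21 to 0.26 with a median of -0.00, 17 positive and 19 negative, where the median over all tested genes was -0.01. Their size had a median of 0.070, against 0.111 over all tested genes, and 24 of the 36 were under 0.1. The 95% interval of the difference lay within a 1.3-fold change in either direction for 29 of the 36 genes and within a 1.5-fold change for 35, all but Atg12. With limma-voom those counts were 26 and 36. The mean score of the 36 genes (log2 values centred on each gene) was 0.019 higher in melatonin than in control libraries, where its SD within groups, pooled over both, was 0.036. Scores ran from 0.005 to 0.021 in melatonin and from -0.065 to 0.054 in control libraries. Without control replicate 3 the difference in mean score was 7.1e-05, and without control replicate 4 it was 0.040.

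**Figure D1:**
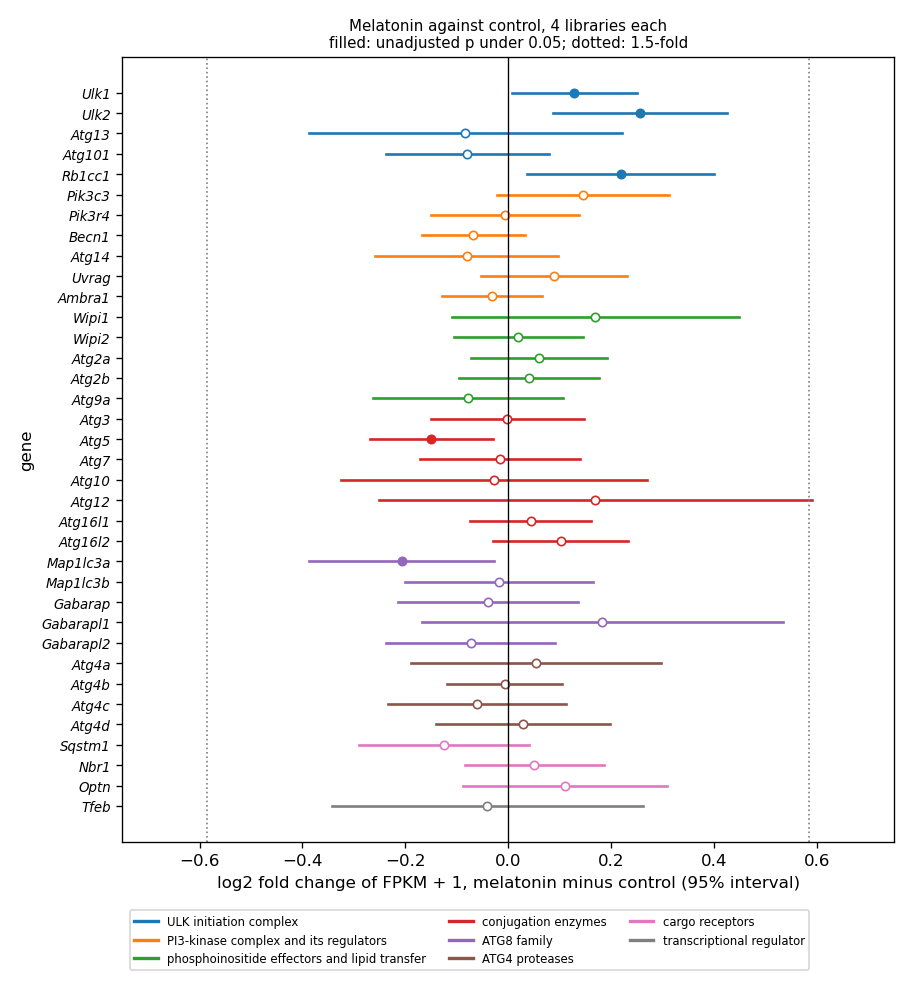
Log2 fold change of FPKM + 1, melatonin minus control, for each of the 36 tested autophagy genes (x axis; y axis: genes, coloured by role), with its 95% interval from limma over 4 libraries per group. Filled points have an unadjusted p under 0.05 (none passed after adjustment), and all intervals but that of Atg12 lie between the dotted 1.5-fold lines.

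The levels of the genes spanned more than their response. FPKM is per length, so levels can be set side by side, and 7 genes averaged over 20 FPKM over the 8 libraries, 21 lay between 5 and 20, 8 between 1 and 5, and Atg9b was under 1. Sqstm1 was highest, at 88.8 ± 4.96 FPKM in melatonin and 97.1 ± 8.62 FPKM in control follicles (SD, n = 4 each, as for all values with ± below). After it came Gabarap, Gabarapl1, Atg12, Map1lc3a, Wipi1 and Nbr1. Gabarapl1 averaged 53.4 ± 4.07 FPKM in melatonin and 47.8 ± 11.4 FPKM in control libraries, and Atg12, the next in the order, 43.8 ± 1.97 and 40.1 ± 11.9 FPKM. The ranges of these neighbours did not overlap in melatonin libraries and did in control libraries, and Gabarapl1 was the higher of them in each of the 8 libraries. At the low end stood Tfeb and the ATG4 protease gene Atg4a. The level of Atg12 also depends on the exon length behind its FPKM, which its values put at 2492 bases where the GENCODE M21 annotation has 7711.

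**Figure D2:**
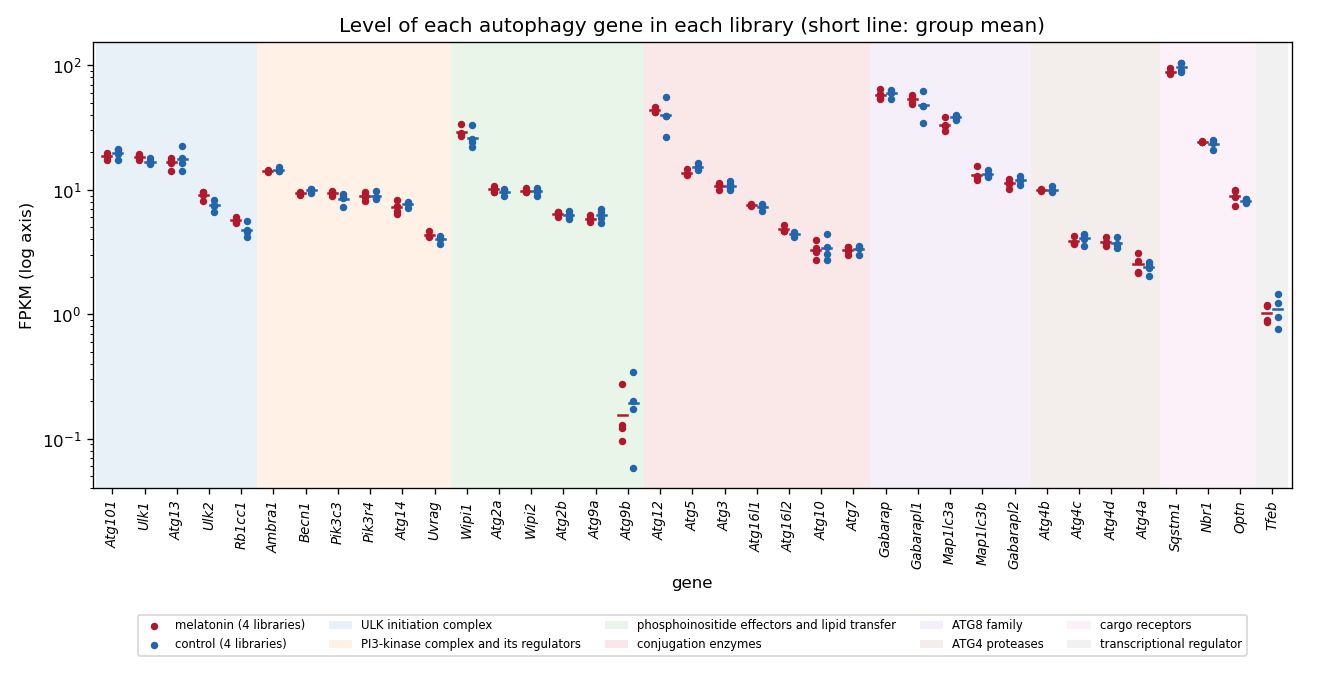
FPKM (y axis, log scale) of all 37 autophagy genes (x axis, grouped by role as shaded) in each of 4 melatonin (left of each pair, red) and 4 control libraries (right, blue), with short lines at group means. Levels run from under 0.4 FPKM for Atg9b to about 100 FPKM for Sqstm1, and the groups overlap for every gene but Atg16l2.

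The ULK complex starts autophagosome formation. Of its 5 genes, 3 were higher at an unadjusted p under 0.05, against 9.4% of all tested genes. These were the only higher ones of the 36 (8.33%), a share near the background. The genes were chosen with earlier results known, so the count is not read as a result about the complex. With the replicate number as a block, only Ulk2 of the 3 stayed under 0.05. Ulk1 and Ulk2 code for the 2 related kinases of the complex, which phosphorylate its other subunits and the lipid kinase complex. Ulk2 (chromosome 11, 61775649 to 61855073, mm10) had 9.56, 9.16, 8.12 and 9.67 FPKM in the melatonin libraries and 7.58, 7.44, 6.68 and 8.22 FPKM in the control libraries. All but melatonin replicate 3 lay above every control library. The means were 9.13 ± 0.70 and 7.48 ± 0.63 FPKM, a log2 fold change of 0.26 (SE 0.07, 95% interval 0.09 to 0.43, unadjusted p = 0.00786, adjusted p = 0.150). Its unadjusted p stayed under 0.05 in all 17 alternative settings.

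Ulk1 (chromosome 5, 110784488 to 110810097) had 19.1, 17.5, 19.4 and 17.98 FPKM in melatonin libraries and 16.4, 16.1, 16.9 and 17.9 FPKM in control libraries. Control replicate 4 reached into the melatonin range. The log2 fold change was 0.13 (SE 0.05, interval 0.01 to 0.25, unadjusted p = 0.0404, adjusted p = 0.242), and in 6 of the 17 alternatives its unadjusted p was 0.05 or more (up to 0.104). Ulk1 was the more abundant of the kinase genes in every library, with a ratio to Ulk2 of 2.04 ± 0.24 in melatonin and 2.26 ± 0.18 in control follicles.

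Rb1cc1 codes for FIP200, the scaffold of the complex (chromosome 1, 6206197 to 6276648). It had 5.44, 5.48, 5.76 and 6.06 FPKM in melatonin and 5.56, 4.59, 4.75 and 4.15 FPKM in control libraries. Control replicate 1 was as high as the melatonin libraries and the other 3 control libraries were below them. This gave a log2 fold change of 0.22 (SE 0.08, unadjusted p = 0.0237, adjusted p = 0.202). Its transcript is AT-rich, at 39.1% GC, and long, and after trends with GC content and exon length were removed from each library the value was 0.06 (unadjusted p = 0.374). In 6 of the 17 alternatives, this one included, its unadjusted p was 0.05 or more. The other 2 subunits had negative values. Atg13, the regulatory subunit, was at 16.6 ± 1.69 and 17.8 ± 3.60 FPKM, and Atg101, which stabilises ATG13, at 18.6 ± 0.90 and 19.8 ± 1.79 FPKM in melatonin and control follicles, with log2 fold changes of -0.08 each.

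The 250 bases before the RefSeq start of each kinase gene (GRCm38.p6, the build called mm10 elsewhere) are printed because Ulk1 and Ulk2 had the same direction in these data. Neither was called, and 7004 of the 14738 tested genes had a positive log2 fold change. Whether the motifs bear on their levels was not tested. Both windows lie on the minus strand and are written 5′ to 3′ along the gene, Ulk1 at chr5:110810082-110810331 and Ulk2 at chr11:61855093-61855342. Capitals mark the GC box GGGCGG, which SP transcription factors can bind, on either strand.
Ulk1: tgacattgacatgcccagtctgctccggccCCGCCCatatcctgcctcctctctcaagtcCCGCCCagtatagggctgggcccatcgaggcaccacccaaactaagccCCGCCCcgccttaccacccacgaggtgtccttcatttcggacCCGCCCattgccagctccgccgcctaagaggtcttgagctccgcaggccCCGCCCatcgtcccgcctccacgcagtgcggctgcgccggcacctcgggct
Ulk2: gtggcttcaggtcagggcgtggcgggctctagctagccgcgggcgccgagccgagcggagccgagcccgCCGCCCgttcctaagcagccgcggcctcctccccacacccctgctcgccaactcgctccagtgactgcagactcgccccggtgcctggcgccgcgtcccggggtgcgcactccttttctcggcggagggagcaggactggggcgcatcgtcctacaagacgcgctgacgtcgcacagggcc
The Ulk1 window held 5 such boxes and the Ulk2 window 1, at 67.2% and 72.8% GC. Promoter windows were on hand for 31 of the 37 genes, in 36 windows. A GC box was found in 22 of the 36 (61.1%), against 32.7% of all 32851 windows in the RefSeq table, and a CCAAT box in 10 (27.8%), against 33.9%. The core of the antioxidant response element, TGACNNNGC, stood in the windows of Ulk2 and Atg13 alone among these genes (5.56%, against 10.2%). Both strands were read, the matches of a motif may overlap those of another, and a match describes letters, not binding. The shares of all windows, here and below, were not limited to genes tested in these follicles. They are therefore not matched to the autophagy genes in expression.

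The lipid kinase complex makes phosphatidylinositol 3-phosphate on the forming membrane, and its 6 genes had log2 fold changes from -0.08 to 0.15. Becn1, the BECLIN 1 subunit that holds the complex together (chromosome 11, 101285952 to 101302286), had 9.64, 9.15, 9.44 and 9.31 FPKM in melatonin and 10.1, 9.47, 9.83 and 10.1 FPKM in control libraries. The groups overlapped, melatonin replicate 1 lying above control replicate 2. The log2 fold change was -0.07 (SE 0.04, interval -0.17 to 0.03, adjusted p = 0.427). Removing GC and length trends brought its unadjusted p to 0.0399. Of its exon length, 43.9% overlaps the gene Cntd1 on the opposite strand, listed at a mean of 0.449 FPKM, and the use of strand in counting is not given in the sources used here.

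Pik3c3, the catalytic subunit VPS34, was at 9.49 ± 0.38 FPKM in melatonin and 8.51 ± 0.87 FPKM in control follicles (log2 fold change 0.15, unadjusted p = 0.0801). Its partner Pik3r4, the VPS15 subunit, was at 8.84 ± 0.58 and 8.89 ± 0.57 FPKM. ATG14 and UVRAG replace each other in 2 forms of the complex, the first acting at the forming autophagosome and the second at endosomes. Atg14 was at 7.21 ± 0.85 and 7.66 ± 0.37 FPKM and Uvrag at 4.33 ± 0.23 and 4.02 ± 0.25 FPKM, a ratio of 1.67 ± 0.23 in melatonin and 1.91 ± 0.13 in control follicles, whose ranges overlapped. Ambra1, which links the complex to ULK1 and to cyclin turnover, was at 14.1 ± 0.21 and 14.5 ± 0.53 FPKM.

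Proteins that read the lipid mark and feed membrane to the growing autophagosome followed. The log2 fold changes of the 5 tested genes lay between -0.08 and 0.17, with 4 positive. Wipi1, one of the WIPI proteins that bind phosphatidylinositol 3-phosphate, was the most abundant of them, at 29.4 ± 3.14 FPKM in melatonin and 26.2 ± 4.76 FPKM in control follicles. Wipi2, which recruits the ATG16L1 complex, was at 9.84 ± 0.39 and 9.70 ± 0.58 FPKM. The lipid transfer genes Atg2a and Atg2b were at 10.1 ± 0.55 and 9.66 ± 0.54 FPKM, and at 6.44 ± 0.26 and 6.24 ± 0.44 FPKM. The scramblase gene Atg9a was at 5.86 ± 0.35 and 6.27 ± 0.74 FPKM. Its paralog Atg9b, which in mouse lies beside Nos3, was at 0.156 ± 0.080 and 0.195 ± 0.118 FPKM, too low to test.

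The conjugation enzymes join ATG12 to ATG5 and ATG8 proteins to a membrane lipid. Atg5 (chromosome 10, 44268358 to 44364291), the acceptor of ATG12, had 13.5, 13.3, 14.7 and 13.4 FPKM in melatonin libraries and 14.6, 16.3, 15.3 and 15.2 FPKM in control libraries. Only melatonin replicate 3 reached into the control range. Atg5 had a log2 fold change of -0.15 (SE 0.05, interval -0.27 to -0.03, unadjusted p = 0.0197, adjusted p = 0.190), and its unadjusted p was 0.05 or more in 2 of the 17 alternatives, without melatonin replicate 2 (0.0554) and without control replicate 2 (0.0567). Atg16l2 (chromosome 7, 101263034 to 101302251), a paralog of Atg16l1 whose part in autophagy is less settled, had 4.63, 5.22, 4.67 and 4.67 FPKM in melatonin and 4.43, 4.39, 4.19 and 4.58 FPKM in control libraries. Its groups did not overlap, and the gap between the lowest melatonin and the highest control value was small (log2 fold change 0.10, unadjusted p = 0.111, adjusted p = 0.364).

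The other 5 genes of this group had adjusted p-values of 0.64 or more. Atg7, the enzyme that activates both ubiquitin-like proteins, was at 3.29 ± 0.21 FPKM in melatonin and 3.33 ± 0.23 FPKM in control follicles. Atg3 and Atg10, the carriers that act after it, were at 10.8 ± 0.60 and 10.8 ± 0.84 FPKM, and at 3.31 ± 0.51 and 3.41 ± 0.72 FPKM. Atg16l1, which sites the conjugate on the membrane, was at 7.58 ± 0.10 and 7.33 ± 0.42 FPKM. Atg12 had a log2 fold change of 0.17 with the widest interval of the 36 genes, -0.25 to 0.59, since its control libraries ran from 26.4 to 55.5 FPKM.

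The ATG8 proteins are the ubiquitin-like tags of the autophagosome, split into LC3 and GABARAP branches. Their summed level was 170 ± 13.02 FPKM in melatonin and 172 ± 13.7 FPKM in control follicles, and the GABARAP branch held most of it. Map1lc3a (chromosome 2, 155276297 to 155278073) had 32.3, 33.1, 29.7 and 38.8 FPKM in melatonin libraries and 40.2, 36.4, 39.5 and 38.4 FPKM in control libraries. Melatonin replicate 4 lay within the control range and the other 3 below it. The log2 fold change was -0.21 (SE 0.08, interval -0.39 to -0.03, unadjusted p = 0.0285, adjusted p = 0.218), the lowest of the 36. The transcript is GC-rich, at 63.1%, and with GC and length trends removed the value was -0.13 (unadjusted p = 0.154). Its unadjusted p was 0.05 or more in 7 of the 17 alternatives.

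Map1lc3b, which codes for the LC3B protein most used as an autophagosome marker, had 11.9, 12.6, 12.9 and 15.4 FPKM in melatonin and 13.4, 12.6, 12.999 and 14.5 FPKM in control libraries (adjusted p = 0.925). The groups overlapped throughout. Gabarap had 53.9, 65.1, 54.9 and 58.7 FPKM in melatonin and 64.0, 53.6, 61.5 and 60.1 FPKM in control libraries (adjusted p = 0.803), also with full overlap. Gabarapl2, the GATE-16 gene, had 10.1, 12.3, 11.1 and 11.8 FPKM in melatonin and 12.2, 10.9, 11.8 and 12.8 FPKM in control libraries (log2 fold change -0.07, adjusted p = 0.605). Gabarapl1 had 49.4, 55.8, 50.6 and 57.8 FPKM in melatonin libraries and 47.4, 46.8, 34.6 and 62.4 FPKM in control libraries (log2 fold change 0.18, SE 0.15, adjusted p = 0.535). Its control values held both the lowest and the highest of the 8, and the log2 fold change was 0.04 without control replicate 3 and 0.32 without control replicate 4.

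As shares of the summed ATG8 level, Gabarap made up 34.3 ± 1.75% in melatonin and 34.9 ± 2.83% in control follicles. Gabarapl1 made up 31.5 ± 0.28% and 27.7 ± 4.84%, Map1lc3a 19.7 ± 1.37% and 22.6 ± 1.72%, Map1lc3b 7.80 ± 0.61% and 7.80 ± 0.24%, and Gabarapl2 6.68 ± 0.28% and 6.97 ± 0.28%. The Gabarapl1 share was nearly constant among melatonin libraries, at 31.2 to 31.8%, while control libraries ran from 21.6% in replicate 3 to 33.2% in replicate 4. The Map1lc3a share ran from 18.5 to 21.3% in melatonin and from 20.4 to 24.6% in control libraries.

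**Figure D3:**
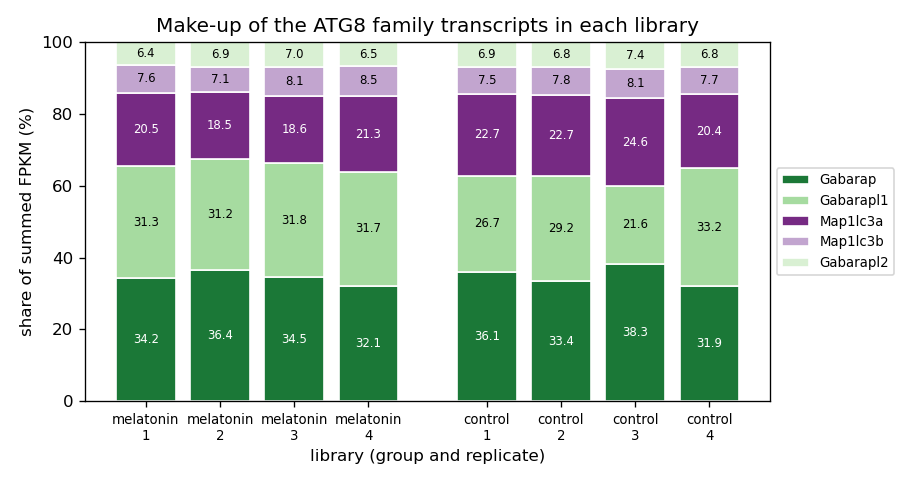
Share of each ATG8 gene in the summed FPKM of the 5 genes (y axis, %) in each library (x axis, melatonin replicates 1 to 4 at left, control replicates 1 to 4 at right), with the share printed in each block. Gabarapl1 takes 31.2 to 31.8% in melatonin and 21.6 to 33.2% in control libraries.

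The ATG4 proteases trim ATG8 proteins before conjugation and free them afterwards, and the log2 fold changes of the 4 genes ran from -0.06 to 0.05. Atg4b, the main protease of the LC3 proteins, was highest, at 9.99 ± 0.18 FPKM in melatonin and 10.05 ± 0.53 FPKM in control follicles. Atg4c was at 3.86 ± 0.25 and 4.08 ± 0.41 FPKM and Atg4d at 3.81 ± 0.30 and 3.72 ± 0.33 FPKM. Atg4a was at 2.53 ± 0.44 and 2.39 ± 0.27 FPKM, and may share reads with its pseudogene Atg4a-ps, listed at means of 0.030 and 0.112 FPKM. Of the exon length of Atg4d, 19.3% overlaps Kri1 on the opposite strand, a gene at 6.81 FPKM, so its reads may be mixed.

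Cargo receptors bind ubiquitin and ATG8 proteins at once. Sqstm1 (chromosome 11, 50199366 to 50210827) codes for p62, which is itself degraded by autophagy, and had 86.1, 95.8, 88.5 and 84.7 FPKM in melatonin and 105, 88.2, 104 and 91.3 FPKM in control libraries. Control replicates 1 and 3 lay above all the others and the groups overlapped. The log2 fold change was -0.13 (SE 0.07, interval -0.29 to 0.04, unadjusted p = 0.119, adjusted p = 0.375). Nbr1, a receptor with a build like that of p62, was at 24.3 ± 0.26 and 23.5 ± 1.86 FPKM. Optn, optineurin, which acts on damaged mitochondria and bacteria, was at 8.96 ± 1.20 FPKM in melatonin and 8.18 ± 0.26 FPKM in control follicles.

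Tfeb codes for a transcription factor that drives lysosomal and autophagy genes. It lay just above the filter, with 1.17, 1.19, 0.903 and 0.862 FPKM in melatonin and 1.23, 0.758, 1.46 and 0.953 FPKM in control libraries, and the groups overlapped (log2 fold change -0.04, interval -0.34 to 0.26, adjusted p = 0.889). The motif CACGTG, which TFEB and other factors of its class can bind, was found within the 250 bases before the start of 3 of the genes, Atg3, Atg5 and Atg7 (3 of 36 windows, 8.33%, against 6.02% of all windows). The Atg3 window, chr16:45158579-45158828 on the plus strand (GRCm38.p6), is printed because it holds 2 copies of this motif; capitals mark CACGTG and the GC box on either strand.
Atg3: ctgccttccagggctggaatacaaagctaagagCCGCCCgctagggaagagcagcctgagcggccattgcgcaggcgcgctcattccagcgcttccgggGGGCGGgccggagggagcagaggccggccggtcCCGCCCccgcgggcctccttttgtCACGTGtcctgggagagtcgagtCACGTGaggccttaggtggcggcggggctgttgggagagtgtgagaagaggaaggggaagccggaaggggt
These 3 genes had log2 fold changes of -0.00 for Atg3, -0.15 for Atg5 and -0.02 for Atg7. The FOXO motif TGTTTAC was in 0 of the 36 windows and in 3.17% of all windows.

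The 2 group means differed by less than the control SD in 25 of the 36 genes. The same count was not made over all tested genes, so it is not read as particular to this set. For 4 genes with wide gaps between control replicates 3 and 4, all higher in replicate 4 and singled out after their values were seen, the values are given here. Atg12 was at 55.5 FPKM in control replicate 4 and 26.4 FPKM in control replicate 3, a ratio of 2.10. Gabarapl1 (62.4 and 34.6 FPKM) had a ratio of 1.80, Atg13 (22.6 and 14.1 FPKM) of 1.61 and Wipi1 (33.0 and 22.1 FPKM) of 1.49. A ratio of 1.5 or more was reached by 3 of the 36 genes (8.33%), against 7.504% of all tested genes, so the share is near the background. In the other direction, a gap of 1.5-fold or more was found in 1 of the 36, against 7.70% of all tested genes. This was Tfeb, at 0.953 FPKM in control replicate 4 and 1.46 FPKM in control replicate 3. Pearson correlations of log2(FPKM + 1) between pairs of these 4 genes were 0.63 to 0.98 over the 8 libraries. They were 0.94 to 1.00 over the 4 control libraries and -0.63 to 0.80 over the 4 melatonin libraries. With 4 points each, and genes chosen for this spread and all higher in control replicate 4, these describe the libraries only.

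Control replicates 3 and 4 differed in other measures as well. Summed leukocyte markers were at 116 FPKM in control replicate 3 and 28.0 FPKM in control replicate 4, and erythroid markers at 1545 and 162 FPKM, against 20.8 to 36.9 and 125 to 479 FPKM in melatonin libraries. The rho with GC content was 0.261 and 0.146 in control replicates 3 and 4. The part of these measures in the spread of the 4 genes was not tested. Without control replicate 4, 8 of the 36 genes had an unadjusted p under 0.05, 6 higher and 2 lower. In that fit 22.2% of all tested genes did, against 19.1% with all libraries, so the share is near the background. Atg12, Gabarapl1, Wipi1 and Pik3c3 were among the 6 higher autophagy genes. Over the 36 genes, the coefficient of variation was larger in control than in melatonin libraries in 26 (72.2%), against 61.5% of all tested genes. It exceeded 20% in 0 genes in melatonin and 5 genes in control libraries, against 19.9% and 24.8% of all tested genes.

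The windows of Gabarapl1 (chr6:129532942-129533191, plus strand) and Wipi1 (chr11:109611390-109611639, minus strand, both GRCm38.p6) are printed here. These genes were singled out above, after their values were seen, for their gaps between control libraries. That they varied together among libraries follows in part from that choice. Capitals again mark the GC box on either strand.
Gabarapl1: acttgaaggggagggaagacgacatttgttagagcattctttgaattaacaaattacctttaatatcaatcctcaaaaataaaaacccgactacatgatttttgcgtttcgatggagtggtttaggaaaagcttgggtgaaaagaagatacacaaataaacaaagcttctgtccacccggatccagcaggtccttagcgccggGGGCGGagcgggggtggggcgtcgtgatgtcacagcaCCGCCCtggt
Wipi1: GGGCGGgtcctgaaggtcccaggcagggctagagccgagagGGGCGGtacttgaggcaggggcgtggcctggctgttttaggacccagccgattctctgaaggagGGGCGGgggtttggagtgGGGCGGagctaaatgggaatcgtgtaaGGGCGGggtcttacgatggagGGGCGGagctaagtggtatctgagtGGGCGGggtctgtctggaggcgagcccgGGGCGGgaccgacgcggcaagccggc
The Wipi1 window held 8 GC boxes and the Gabarapl1 window 2, while the window of Atg13 held 0. GENCODE M21 puts the start of Wipi1 at 109611967. The Wipi1 window therefore precedes the RefSeq start but lies inside the gene of GENCODE M21. Pearson correlations of Atg13 with Gabarapl1 and Wipi1 were 0.97 and 0.98 over the control libraries, but -0.12 and 0.52 over the melatonin libraries. Atg13 was singled out in the same way. Whether GC boxes bear on these levels was not tested.

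**Figure D4:**
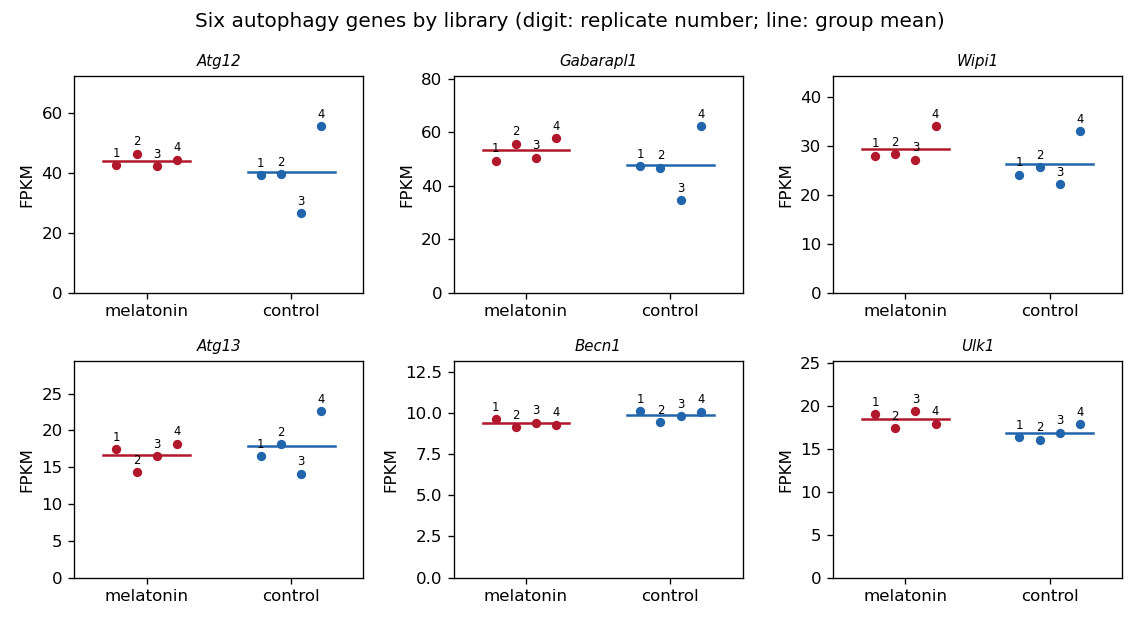
FPKM (y axis, from 0) of 6 autophagy genes in 4 melatonin libraries (left, red) and 4 control libraries (right, blue), with replicate numbers as digits and lines at group means. Atg12, Gabarapl1, Wipi1 and Atg13 are lowest in control replicate 3 and highest in control replicate 4 among control libraries, while Becn1 and Ulk1 vary little.

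Further genes of the pathway were read from 6 lists by role. Of 93 tested, 0 had an adjusted p under 0.05, 10 were higher and 10 lower at an unadjusted p under 0.05 (against 9.4% and 9.74% of all tested genes), and the median log2 fold change was -0.00. The 3 genes with the smallest p of each list are named. All counts by direction in the lists that follow are of genes at an unadjusted p under 0.05, to be read against the same background. Among the transcription factors, 3 of 8 were higher and 0 lower at an unadjusted p under 0.05. Mitf, a relative of TFEB best known from melanocytes, had 9.73, 7.49, 6.59 and 6.22 FPKM in melatonin and 3.73, 5.10, 3.37 and 4.32 FPKM in control libraries. All 4 melatonin values lay above all control values. Its log2 fold change was 0.72 (SE 0.15, unadjusted p = 0.00089, adjusted p = 0.120), and 0.67 with GC and length trends removed. Zkscan3, described as a repressor of autophagy genes, was at 15.9 ± 1.09 and 13.6 ± 0.40 FPKM, without overlap. Flcn, folliculin, which acts on TFEB through Rag GTPases, was at 12.7 ± 1.75 and 10.4 ± 1.28 FPKM.

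Kinases and regulators that sense nutrients and energy had 5 of 23 genes higher and 1 lower at an unadjusted p under 0.05. Rictor, the defining subunit of mTORC2, was at 6.78 ± 0.59 FPKM in melatonin and 4.92 ± 0.59 FPKM in control follicles (log2 fold change 0.40, unadjusted p = 0.00185, adjusted p = 0.121). With GC and length trends removed, the log2 fold change of Rictor was 0.27. Lamtor1, an anchor of mTORC1 at the lysosome, was at 10.96 ± 0.998 and 12.7 ± 0.30 FPKM. Prkaa1, a catalytic subunit of AMPK, was at 12.6 ± 0.32 and 11.5 ± 0.18 FPKM (log2 fold change 0.12, and 0.04 with GC and length trends removed). Mtor itself, named after its values were seen, was at 10.6 ± 0.28 and 11.1 ± 0.40 FPKM.

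Other early factors had an unadjusted p under 0.05 in 5 of 19 genes on the lower and 0 on the higher side, against 9.74% and 9.4% of all tested genes. Vcp, a segregase of ubiquitinated proteins, was at 62.1 ± 12.4 FPKM in melatonin and 85.2 ± 8.73 FPKM in control follicles (log2 fold change -0.46, unadjusted p = 0.00705, adjusted p = 0.148). With GC and length trends removed, the log2 fold change of Vcp was -0.44. Its groups overlapped, melatonin replicate 2 (80.6 FPKM) lying within the control range of 75.8 to 94.2 FPKM. The membrane traffic GTPase genes Rab1b and Rab1a were at 46.3 ± 1.69 and 52.8 ± 3.29 FPKM, and at 29.2 ± 0.86 and 32.7 ± 2.30 FPKM. Their log2 fold changes were -0.18 and -0.15, and -0.10 and -0.20 with GC and length trends removed. Other cargo receptors had an unadjusted p under 0.05 in 3 of 17 genes on the lower and 0 on the higher side. In these 3 the groups did not overlap, as in 5.94% of all tested genes for this direction. Bnip3, a mitophagy receptor induced by hypoxia, was at 16.5 ± 0.89 and 21.3 ± 2.73 FPKM (log2 fold change -0.34, unadjusted p = 0.00372, adjusted p = 0.142). With GC and length trends removed, the log2 fold change of Bnip3 was -0.38. Phb2, a receptor on the inner mitochondrial membrane, was at 39.5 ± 1.66 and 44.8 ± 2.24 FPKM, and Nufip1, a ribosome receptor, at 5.03 ± 0.19 and 5.74 ± 0.39 FPKM.

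Genes of the damaged mitochondria pathway had 1 of 8 higher and 1 lower at an unadjusted p under 0.05. Vdac1, the main channel of the outer mitochondrial membrane, was at 78.9 ± 3.93 FPKM in melatonin and 86.9 ± 2.93 FPKM in control follicles. Tbk1, a kinase of cargo receptors, was at 17.1 ± 0.68 and 14.999 ± 1.69 FPKM, and the deubiquitinase gene Usp15 at 4.95 ± 0.22 and 4.59 ± 0.40 FPKM. Genes for the fusion of autophagosomes with lysosomes had 1 of 18 higher and 0 lower at an unadjusted p under 0.05. Stx17, the SNARE of the finished autophagosome, was at 8.58 ± 0.37 and 7.66 ± 0.17 FPKM, without overlap (log2 fold change 0.15, unadjusted p = 0.0143, adjusted p = 0.173). With GC and length trends removed, the log2 fold change of Stx17 was 0.097. The tether gene Tecpr1 was at 4.72 ± 0.03 and 4.22 ± 0.38 FPKM, and Arl8a, a GTPase that moves lysosomes, at 20.4 ± 0.83 and 18.8 ± 1.16 FPKM.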

How the data were processed

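Messenger RNA was measured in 8 libraries, 4 with melatonin and 4 controls. Per the submitters' processing notes, reads were aligned with HISAT2 2.0.5 to mm10. How reads were counted, with which annotation and whether by strand, is not given in the sources used here. Per the file headers, the authors deposited FPKM per gene, and 0 values differed between the table of the whole series and the 8 sample files. A FPKM value depends on all genes of its library, so it cannot show a change in total RNA.

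Whole fragments were recovered from the steps between low FPKM values with exon lengths from GENCODE M21 (98.7 to 98.9% of values of up to 30 fragments were whole within 0.05). For 978 of the 14738 tested genes, Atg12 among them, another length made all 8 values whole. Genes averaging 1 FPKM or more were tested on log2(FPKM + 1) with the trended empirical Bayes fit of limma 3.58.1 (R 4.3.3), with group as the single term and p-values adjusted by the Benjamini-Hochberg method over all tested genes. Fold changes on this scale understate those of low genes. The threshold was an adjusted p of 0.05.

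The members and lists were chosen with earlier results of these data known, so no p-value is given over a list. Values in every library are given for members at an unadjusted p under 0.05, members without overlap, the 5 ATG8 genes, Ulk1, Becn1, Sqstm1 and Tfeb, and from each further list the 3 genes with the smallest p are named. Promoter windows (250 bases before the start) come from RefSeq, GRCm38.p6. GC and length trends were removed by natural splines with 5 degrees of freedom over 14392 genes. Alternatives were quantile normalization, median-ratio scaling, no filter, a filter of 5 FPKM, a pseudocount of 0.1, the replicate number as a block, array weights, the GC and length correction, limma-voom on recovered fragments and leaving out each library. Python 3.11.15 was used for tables and plots.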

Additional observations from a re-analysis of the deposited data

Results flagged for a closer look

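In 4 of the 74 sets of 4 libraries (37 genes in each group), 1 library lay far from the other 3 by Dixon's criterion, which chance gives in about 1 in 20 sets. All 4 were high values among melatonin libraries. Wipi1 was at 34.1 FPKM in melatonin replicate 4, where the other 3 were at 27.2 to 28.4 FPKM. Atg5 was at 14.7 FPKM in melatonin replicate 3, where the others were at 13.3 to 13.5 FPKM, and this was the value that reached into the control range. Atg16l2 was at 5.22 FPKM in melatonin replicate 2, where the others were at 4.63 to 4.67 FPKM. Atg4c was at 4.23 FPKM in melatonin replicate 4, where the others were at 3.70 to 3.77 FPKM. The control libraries of these genes had no such value.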

How the results depend on the processing

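The count of called genes was 0 in all but 2 of the 17 alternatives: it was 1 with no filter on low values and 1 without control replicate 1. No autophagy gene was called in any of them. The number of autophagy genes at an unadjusted p under 0.05 was 5 as reported, 4 to 5 in the 9 alternatives that keep all libraries, and 2 to 8 when 1 library was left out (2 without melatonin replicate 3, 8 without control replicate 4). Of all tested genes, 19.1% had such a p as reported, 18.5% without melatonin replicate 3 and 22.2% without control replicate 4. The 5 genes of the GC and length correction were Atg5, Becn1, Pik3c3, Ulk1 and Ulk2. Whether replicate numbers pair the samples is not stated, and the labels name no shared litter or day. Correlations of deviations between same-numbered libraries were 0.0007, -0.103, 0.151 and 0.038 for replicates 1 to 4. Between differently numbered libraries they ran from -0.0909 to 0.0956. So few and weak correlations cannot decide it. The replicate block gave 0 calls, 2776 in place of 2821 genes at an unadjusted p under 0.05, and 4 in place of 5 autophagy genes (Atg5, Map1lc3a, Ulk2 and Wipi1).

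Of 523 log2 fold changes of 31 named genes under the alternatives, 514 kept their direction and 9, all small, turned. Gabarap was 0.0454 with quantile normalization and 0.0141 with the GC and length correction. Tfeb was 0.0201 with array weights, 0.0126 with that correction and, over the fits that leave out 1 library, between -0.122 (without control replicate 2) and 0.0386 (without control replicate 3). Usp15 was -0.0397 with that correction. Map1lc3b ran from -0.0887 (without melatonin replicate 4) to 0.0261 (without melatonin replicate 1) over such fits and was also positive without melatonin replicate 2 (0.0013) and without control replicate 4 (0.0196). The cause was not tested. With 4 libraries per group, the median SE of the 36 log2 fold changes was 0.073.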
